A study of Homo sapiens with 4 samples.

Results

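The imprinted DLK1-DIO3 cluster is a long run of microRNA (miRNA) genes on the plus strand of human chromosome 14, band q32. Its members were taken by name, as every row of the table of mature miRNAs whose name carried 1 of 50 hairpin names of the cluster, with either arm of a hairpin accepted. This gave 80 of the 2039 miRNAs listed. The name rule itself uses no measured value.

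Domains of this kind are imprinted, which means that only the copy inherited from one parent is active. At DLK1-DIO3 the miRNAs are made with the long noncoding RNAs MEG3, MEG8 and MEG9 from the maternal chromosome, and the protein genes DLK1, RTL1 and DIO3 are read from the paternal one. A mature miRNA pairs through its seed, bases 2 to 8, with messenger RNAs and lowers their output. The cluster is best known from brain, placenta and embryonic tissue, and in mouse pluripotent stem cells its activity marks cells of full developmental potential.

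The cells were HFE-145, an immortalised human gastric epithelial line, which all 4 libraries share. Vector cells carried the vector, and YAP5SA cells overexpressed YAP5SA, a form of the growth regulator YAP that Hippo kinases cannot hold in check because their target serines are replaced. There were 2 libraries per group. The sources used here do not give the promoter driving YAP5SA, the time after its introduction, or whether the cells were a clone or a pool. Neither do the labels call the duplicates separate cultures. The p-values below can therefore speak only of the spread among these 4 libraries, which may be technical. YAP1 messenger RNA was not measured, so the overexpression was not checked.

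The vector libraries, replicates 1 and 2, held 217235 and 195283 counts, and the YAP5SA libraries held 136903 and 191954. YAP5SA replicate 1 stood apart from the rest: miRNAs with a mean of under 20 counts, called rare here, took 10.5% of its counts, against 5.56% in YAP5SA replicate 2 and 3.41% and 3.15% in the vector libraries. In all 4 libraries miR-372, a miRNA of embryonic stem cells, was the most counted. The 12 epithelial miRNAs (miR-200 family, miR-203 and miR-205) made up 2.70% and 2.16% of the vector libraries and 1.65% and 1.58% of the YAP5SA libraries. Of their 9 tested rows 5 were lower in YAP5SA cells, beside 3.49% of all tested miRNAs. The 6 gastrointestinal miRNAs (miR-192, miR-194, miR-215 and miR-375) took between 0.0389% and 0.0869%, so the labelled gastric origin rests on low counts of these markers.

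Of the 80 members, 79 matched a mature sequence of RefSeq (GRCh38.p14), and 78 of these lie on chromosome 14. The exception is miR-544b, which maps to chromosome 3 (124732486 to 124732507, plus strand), within an intron of UMPS. It went against the cluster's label and was kept because the name rule takes it. The hairpins on chromosome 14 run from 100852390 to 101066801 on GRCh38, a stretch of 214.4 kb. MEG3 (100779410 to 100861031) stands at the upstream end and MEG9 (101064151 to 101072937) at the downstream end. The 10 proximal hairpins, with 16 members, lie within 58.8 kb of the first, miR-770, which sits in an exon of MEG3. The distal group, with 64 members, starts 169.7 kb from it with miR-379. In GENCODE 29, 20 members lie in introns of MEG8, 8 in introns of MIR381HG, 9 in MEG9, and 26 in no long gene of their strand. Another 9, from miR-127, miR-136, miR-431, miR-432 and miR-433, lie opposite an exon of RTL1; in mouse such miRNAs direct the silencing of the paternal Rtl1 transcript.

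The mature sequences of the most counted members and of those that passed the test are shown first, since the results turn on them, with the seed in capitals. The first 5 are the highest by summed count.
miR-487a: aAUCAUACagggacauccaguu
miR-329: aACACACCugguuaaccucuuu
miR-655: aUAAUACAugguuaaccucuuu
miR-668: uGUCACUCggcucggcccacuac
miR-337-5p: gAACGGCUucauacaggaguu
miR-134: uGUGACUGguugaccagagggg
miR-370: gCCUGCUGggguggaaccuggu
miR-758-3p: uUUGUGACcugguccacuaacc
miR-758-5p: gAUGGUUGaccagagagcacac
All sequences are RefSeq's but that of miR-668, which is the deposited table's. None of these 9 shares a seed with another of the 9.

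Seeds are mostly unlike each other across the cluster. The 80 members held 72 seeds, and 8 seeds were each shared by 2 members. These 4 pairs show how close such members can be, with the shared seed in capitals.
miR-487a: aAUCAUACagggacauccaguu
miR-154-3p: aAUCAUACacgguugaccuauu
miR-376a-3p: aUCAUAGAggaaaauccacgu
miR-376b-3p: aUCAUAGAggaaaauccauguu
miR-381-3p: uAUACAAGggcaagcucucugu
miR-300: uAUACAAGggcagacucucucu
miR-411-3p: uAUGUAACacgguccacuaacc
miR-379-3p: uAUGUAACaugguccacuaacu
Of these pairs, miR-376a-3p and miR-376b-3p differ by 1 base over the shared length, miR-411-3p and miR-379-3p by 2, and miR-381-3p and miR-300 by 3. Reads of such pairs could be split by the counting, so their single counts are uncertain. The same holds for miR-487a with miR-487b, which differ by 3 bases, for miR-376a-3p with miR-376c-3p, for miR-323a-3p with miR-323b-3p, for the 5p arms of miR-376b and miR-376c, and for the 2 listed 3p arms of miR-1185. Some short words recur: ACAUGG was found in 7 of 80 members (8.75%) and in 13 of the 1959 other miRNAs (0.664%), and CAUACA in 7 members and in 5 others (0.255%). These words were picked for being frequent in the members, so the shares are a description.

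Most of the cluster was counted at a handful of reads. CPM are counts scaled to a common library size. On library totals, 1 count stood for 4.6 and 5.12 CPM in the vector replicates and for 7.30 and 5.21 CPM in the YAP5SA replicates. The median member had 2, 2, 8 and 4 counts in that order, and the median of all miRNAs was 3, 3, 8 and 5. Members without a read numbered 12 and 14 in vector cells and 1 and 4 in YAP5SA cells. The cluster was therefore near the limit of detection at this depth in the vector cells, apart from a few members.

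Summed over the 80 members, the cluster had 996 and 614 counts in vector cells and 1086 and 907 in YAP5SA cells. As shares of the library these were 0.458% (exact binomial 95% interval 0.431 to 0.488) and 0.314% (0.290 to 0.340) in vector cells, and 0.793% (0.747 to 0.842) and 0.473% (0.442 to 0.504) in YAP5SA cells. Such intervals cover counting error only, since reads were counted without molecular identifiers. Both YAP5SA libraries were above both vector libraries, although YAP5SA replicate 2 and vector replicate 1 had overlapping intervals. The mean share was 0.633% ± 0.227 (SD, n = 2) in YAP5SA cells and 0.386% ± 0.102 (SD, n = 2) in vector cells, a ratio of 1.64. A two-sided exact permutation test gave p = 0.333, the smallest value 2 libraries against 2 allow. With TMM scaling (trimmed mean of M values, which sets libraries level on the bulk of miRNAs) the sums were 5262 and 4036 CPM in vector cells and 6169 and 4747 CPM in YAP5SA cells. The groups then overlapped, with a ratio of 1.17 and an exact permutation p of 0.667. In bulk samples such as these, fewer cells making a miRNA and less of it per cell cannot be told apart.

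**Figure D1:**
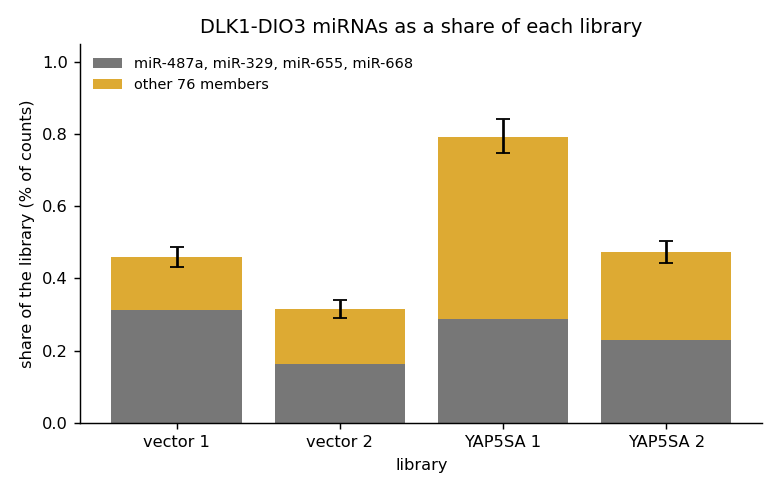
Share of each library's counts taken by the 80 members (percent, 4 libraries), split into the 4 most counted members and the other 76. The 76 rarer members took 0.146% and 0.151% of the vector libraries and 0.505% and 0.244% of the YAP5SA libraries. Bars on each column are exact binomial 95% intervals of the whole share.

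The 4 most counted members, miR-487a, miR-329, miR-655 and miR-668, made up 68.1% and 52.1% of the cluster's counts in vector cells and 36.4% and 48.3% in YAP5SA cells. The other 76 members together had 318 and 294 counts in vector cells and 691 and 469 in YAP5SA cells. Their share of the library was 2.52 times higher in YAP5SA cells, with an exact permutation p of 0.333, again the smallest possible. With TMM scaling this ratio was 1.77, and on library totals it was 1.65 without YAP5SA replicate 1. Rare miRNAs of the whole table shifted alongside: the 74 rare members took 2.87 times more of the counts in YAP5SA cells, and all 1753 rare miRNAs 2.44 times more. Without YAP5SA replicate 1 these ratios were 1.85 and 1.70, and with TMM scaling 2.01 and 1.73. The part of that shift in the members' values was not tested.

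In the test of YAP5SA against vector cells, run with edgeR's quasi-likelihood method on all 602 miRNAs with enough counts and adjusted by Benjamini-Hochberg over them, 3 members rose and none fell. The members that rose were miR-134, miR-370 and miR-758-3p. Only 19 of the 80 members passed the filter on low counts, and 61 did not. The 3 that rose passed it only through their YAP5SA libraries, since their vector counts were too low. Their direction and p-values are therefore not independent of the filter. The 3 calls are 15.8% of the 19 tested members, and over all tested miRNAs 11.8% were called higher and 3.49% lower. Among the 317 tested rare miRNAs, the class that holds all 3, 18.3% were called higher and 0.631% lower. The members' share of calls was thus near that of other miRNAs. At an unadjusted p under 0.05, 5 members (26.3%) were higher and 1 (5.26%) lower, beside 21.8% and 11.5% of all tested miRNAs. DESeq2 called none in either direction, with 2 higher (10.5%) and none lower (0.0%) at an unadjusted p under 0.05, beside 14.6% and 7.81% of all tested miRNAs.

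The median log2 fold change of the 19 tested members was 0.19, with 11 of them above 0, and that of all 602 tested miRNAs was 0.11. The median of the 13 rare members tested was 0.68, and that of the 317 rare miRNAs tested was 0.66. A rare member passes the filter more readily if it is high in 1 group, so these medians describe the tested rows and not the cluster.

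**Figure D2:**
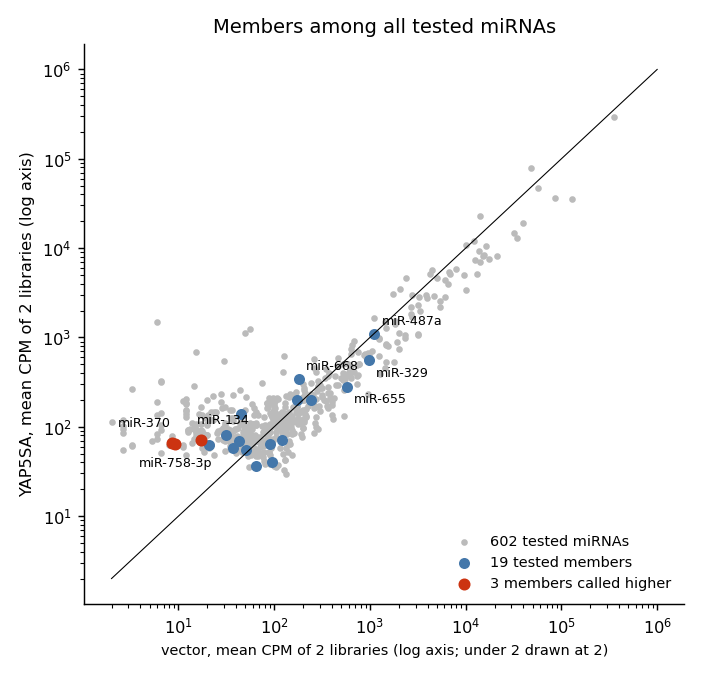
Mean TMM-scaled CPM of the 2 vector libraries (x axis) against that of the 2 YAP5SA libraries (y axis), both on log axes, for the 602 tested miRNAs, with the line of equal values. The 19 members (blue, and red for the 3 that rose) lie within the spread of the other miRNAs, and the 3 that rose sit at vector levels of 8.57 to 17.1 CPM.

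miR-134, which limits the size of dendritic spines through Limk1 in rat neurons, had 4 and 2 counts in vector cells and 12 and 14 in YAP5SA cells. Both YAP5SA libraries were above both vector libraries. Its level was 17.1 ± 5.65 CPM in vector cells and 70.7 ± 3.61 CPM in YAP5SA cells (SD, n = 2 each), and the log2 fold change was 1.97 ± 0.54 (SE, edgeR adjusted p = 0.048).

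miR-370, which represses the fatty acid oxidation enzyme CPT1A in human liver cells, had 2 and 1 counts in vector cells and 10 and 14 in YAP5SA cells. The groups did not overlap, and YAP5SA cells had 65.0 ± 11.6 CPM against 8.57 ± 2.82 CPM in vector cells (SD, n = 2 each). With 3 vector counts in all, the ratio was 7.44, with an exact binomial 95% counting interval of 2.26 to 38.6 and an edgeR adjusted p of 0.030. It is the last hairpin of the proximal group.

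Both arms of miR-758 were higher in each YAP5SA library than in each vector library. The 3p arm, which represses the cholesterol exporter ABCA1 in human and mouse cells, had 1 and 2 counts in vector cells and 8 and 16 in YAP5SA cells. Its pooled counts equal those of miR-370, which gave the same ratio and interval, and the edgeR adjusted p was 0.038. The 5p arm had 12 and 4 counts in vector cells and 30 and 21 in YAP5SA cells. Its log2 fold change was 1.59 ± 0.59 (SE) and did not pass, at an edgeR adjusted p of 0.11.

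These 3 calls rest on all 4 libraries. Without vector replicate 1, vector replicate 2, YAP5SA replicate 1 and YAP5SA replicate 2 in turn, the edgeR adjusted p was 0.271, 0.211, 0.181 and 0.187 for miR-134. In the same order it was 0.271, 0.211, 0.106 and 0.145 for miR-370, and 0.302, 0.211, 0.0797 and 0.236 for miR-758-3p. Fits without a vector library take the lone one to vary like the YAP5SA pair, and the reverse.

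The most counted member, miR-487a, had 186 and 189 counts in vector cells and 195 in YAP5SA replicate 2. Its TMM-scaled level, in all 4 libraries, was 983 and 1242 CPM in vector cells and 1164 and 1021 CPM in YAP5SA cells, so the groups overlapped on that scaling. The log2 fold change was -0.03 ± 0.30 (SE, edgeR adjusted p = 0.96); its sign turned with the scaling, to 0.51 on library totals, 0.06 on upper-quartile scaling and 0.73 on scaling from abundant miRNAs.

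miR-329, a miRNA induced with miR-134 by activity in rat neurons, had 291 and 64 counts in vector replicates 1 and 2 and 105 and 98 in the YAP5SA libraries. miR-655, which represses the transcription factor ZEB1 in human cells, had 172 and 35 in vector cells and 60 and 42 in YAP5SA cells. Vector replicate 1 was the high library for both. The log2 fold changes were -0.82 ± 0.56 and -1.03 ± 0.63 (SE) with edgeR adjusted p of 0.37 and 0.30, and without vector replicate 1 they turned to 0.40 and 0.28. Of 286 miRNAs that averaged 20 counts or more, these were the only 2 with over 2 times the TMM-scaled level of the next library in vector replicate 1. Their sequences end in the same 14 bases, shown in capitals, though their seeds differ and their hairpins stand 174.4 and 197.2 kb from the first.
miR-329: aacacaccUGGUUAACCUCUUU
miR-655: auaauacaUGGUUAACCUCUUU
Of the pair's counts, miR-329 made up 62.9% and 64.6% in vector cells and 63.6% and 70.0% in YAP5SA cells, with exact binomial 95% intervals that overlap throughout (58.3 to 67.3, 54.4 to 74.0, 55.8 to 71.0 and 61.7 to 77.4). The pair was singled out after its values were seen. Whether the counting divided reads between the 2 was not tested.

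miR-668 had 29 and 32 counts in vector cells and 25 and 103 in YAP5SA cells. YAP5SA replicate 2 alone was high, the groups overlapped, and the log2 fold change of 0.91 ± 0.63 (SE) did not pass (edgeR adjusted p = 0.37). Without YAP5SA replicate 1 it passed, at an adjusted p of 0.020, and without YAP5SA replicate 2 it was -0.43.

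**Figure D3:**
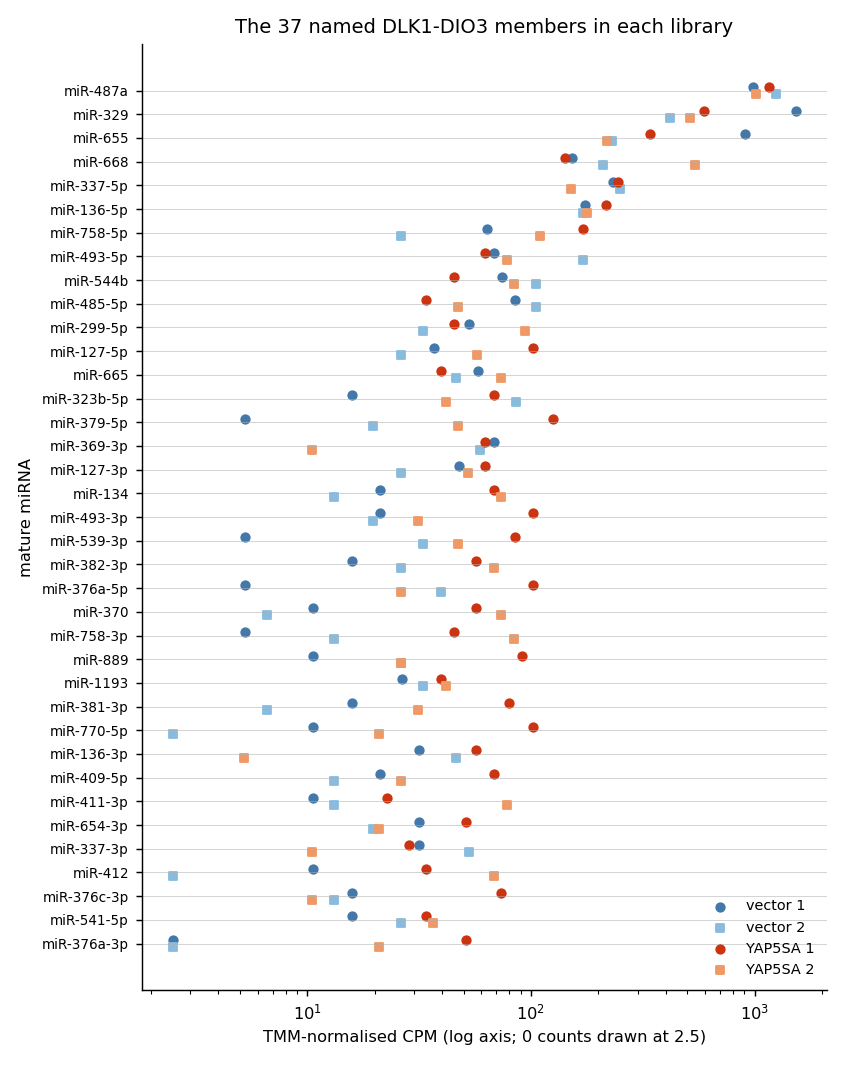
TMM-scaled CPM of the named members in each of the 4 libraries (log axis, 0 counts drawn at 2.5), ordered by summed count. miR-487a keeps its 4 libraries between 983 and 1242 CPM, miR-329 and miR-655 have 1 high vector library, and in miR-134, miR-370 and miR-758-3p both YAP5SA libraries lie above both vector libraries.

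Among the proximal members, miR-337-5p had 44 and 38 counts in vector cells and 43 and 29 in YAP5SA cells, and miR-136-5p had 33 and 26 against 38 and 34. On TMM-scaled CPM, miR-337-5p overlapped between the groups, whereas both YAP5SA libraries of miR-136-5p lay above both vector libraries by a small margin (178 CPM against 174 CPM at the nearest). Their log2 fold changes were -0.28 ± 0.43 and 0.19 ± 0.41 (SE), with edgeR adjusted p of 0.70 and 0.79. The first turned to 0.27 on library totals.

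miR-127, which lies opposite RTL1, gave 7 and 4 counts of its 5p arm in vector cells and 18 and 11 in YAP5SA cells. Its 3p arm had 9 and 4 against 11 and 10. Both arms were higher in each YAP5SA library on TMM-scaled CPM, with log2 fold changes of 1.29 and 0.59 and edgeR adjusted p of 0.15 and 0.48. The sources used here do not say whether the counting told the strands of miR-127 and RTL1 apart. Elsewhere in the data, miR-423-3p and the opposite-strand miR-3184-5p had near-equal levels. They had 5674 and 8164 CPM against 5389 and 8039 CPM in vector cells. In YAP5SA cells they had 4158 and 6029 CPM against 4351 and 6589 CPM. Whether the counting credited both strands was not tested.

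miR-493-5p had 13 and 26 counts in vector cells and 11 and 15 in YAP5SA cells, and its groups overlapped. The 3p arm, which did not pass the filter, had 4 and 3 against 18 and 6. miR-770-5p was counted 2 and 0 times in vector cells and 18 and 4 times in YAP5SA cells, a ratio of 10.2 with a counting interval of 2.51 to 89.7. Of the rest of the proximal group, miR-665 had 11 and 7 counts against 7 and 14, miR-337-3p had 6 and 8 against 5 and 2, and miR-136-3p had 6 and 7 against 10 and 1. Over the 6 tested proximal members the median log2 fold change was 0.39, with 1 called higher, beside 11.8% of all tested miRNAs.

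Distal members tested numbered 13, with a median log2 fold change of 0.18 and 2 called higher, beside 11.8% of all tested miRNAs. Near miR-134 in the distal group stood miR-382-3p and miR-485-5p, which went opposite ways. miR-382-3p had 3 and 4 counts in vector cells and 10 and 13 in YAP5SA cells, a log2 fold change of 1.57 ± 0.54 (SE, edgeR adjusted p = 0.088). miR-485-5p, which represses the synaptic vesicle protein SV2A in rat neurons, had 16 and 16 counts in vector cells and 6 and 9 in YAP5SA cells. Its value was -1.20 ± 0.49 (SE, edgeR adjusted p = 0.14), and both YAP5SA libraries were below both vector libraries.

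The remaining tested distal members did not pass, at edgeR adjusted p between 0.46 and 0.89. miR-299-5p had 10 and 5 counts in vector cells and 8 and 18 in YAP5SA cells, miR-323b-5p had 3 and 13 against 12 and 8, and miR-369-3p had 13 and 9 against 11 and 2. Each of these overlapped between the groups on TMM-scaled CPM. miR-544b, the member on chromosome 3, had 14 and 16 counts in vector cells and 8 and 16 in YAP5SA cells, and leaving it out moved the median of the tested members from 0.19 to 0.39.

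Several distal members left out by the filter had few vector counts and more in YAP5SA replicate 1 than in YAP5SA replicate 2. miR-379-5p, at the upstream end of the distal group, had 1 and 3 counts in vector cells and 22 and 9 in YAP5SA cells. miR-376a-3p was not detected in either vector library and had 9 and 4 counts in YAP5SA cells, at least 4.03-fold higher than a floor of 3 counts over the vector group. This member is encoded by 2 hairpins and can be edited from A to I in its seed in human and mouse brain, and reads changed by editing were not analysed here.

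Counts of the other untested distal members ran the same way in part. miR-376a-5p had 1 and 6 against 18 and 5, miR-539-3p 1 and 5 against 15 and 9, and miR-381-3p 3 and 1 against 14 and 6. miR-889 had 2 and 4 against 16 and 5, miR-409-5p 4 and 2 against 12 and 5, and miR-376c-3p 3 and 2 against 13 and 2. In these 6 YAP5SA replicate 1 was the highest library, and in miR-376a-5p, miR-889 and miR-376c-3p the groups overlapped. YAP5SA replicate 2 was the highest in miR-411-3p (2 and 2 against 4 and 15) and in miR-412, whose 2 and 0 vector counts against 6 and 13 gave a ratio of 8.83 with a counting interval of 2.13 to 78.2. miR-1193 (5 and 5 against 7 and 8), miR-541-5p (3 and 4 against 6 and 7) and miR-654-3p (6 and 3 against 9 and 4) had under 10 counts in every library.

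In the remaining 43 members, counts reached no more than 6 in either vector library, 12 in YAP5SA replicate 1 and 10 in YAP5SA replicate 2. Their median counts were 1, 1, 6 and 2. None passed the filter, so no difference was tested in them.

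Over all 80 members, both YAP5SA libraries were above both vector libraries in 38 (47.5%) on TMM-scaled CPM and below both in 5 (6.25%). Over all 2039 miRNAs these shares were 34.3% and 11.7%, and over the 1753 rare miRNAs 37.2% and 7.02%, beside 50% and 6.76% of the 74 rare members. On library totals, the members' shares were 66.2% and 2.5%, beside 52.3% and 5.39% of all miRNAs and 55.9% and 2.91% of rare ones. These shares describe the 4 libraries, and no test of the difference between members and other miRNAs was made. The 5 members below were miR-485-5p, miR-485-3p, miR-337-3p, miR-323b-3p and miR-656. By hairpin, with arms summed, 24 of 50 were above and 2, miR-485 and miR-656, were below. The share by hairpin was not computed over all miRNAs, so these hairpin counts have no background and only describe the cluster.

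**Figure D4:**
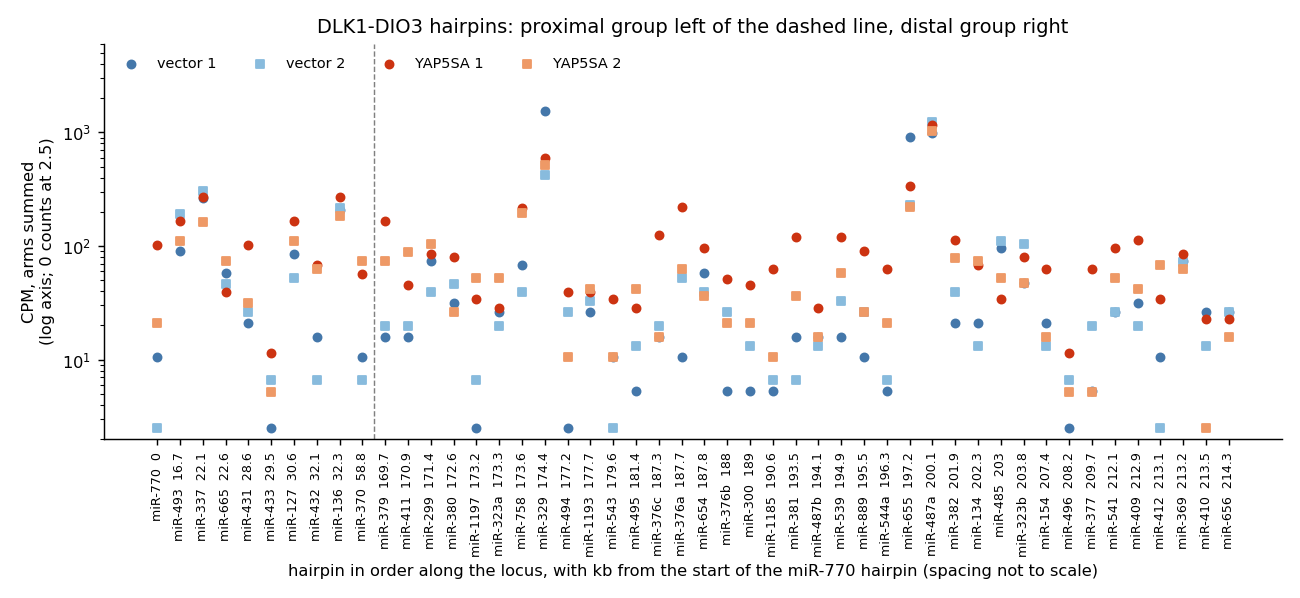
TMM-scaled CPM of each hairpin on chromosome 14 in each of the 4 libraries (log axis, arms summed, 0 counts drawn at 2.5), in order along the locus with the distance in kb from the start of the miR-770 hairpin; spacing is not to scale. The proximal hairpins end at 58.8 kb and the distal ones begin at 169.7 kb, and miR-487a lies between 983 and 1242 CPM.

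Arms were compared in the 26 hairpins whose 5p and 3p arms are both listed and each matched a single locus. miR-376a and miR-1185, which have an arm at 2 loci, were left out. The 5p arm had more counts in 15, the 3p arm in 10, and 1 was even. Exact binomial 95% intervals of the 5p share, over the 4 libraries summed, lay above 50% in 8 hairpins and below it in 5. The most 5p-sided was miR-485 at 92.2% (81.1 to 97.8), followed by miR-337 at 88% (82.2 to 92.4) and miR-136 at 84.5% (77.8 to 89.8). miR-758, of which the 3p arm rose, was 71.3% 5p. The most 3p-sided were miR-539 and miR-381, each at 25.0%, and miR-411 at 25.8%, with miR-377 level with them on fewer counts. The 5p share of miR-493 was 84.8% in vector cells and 52.0% in YAP5SA cells, and that of miR-369 was 12% and 51.9%. No test was made on these 2, which were singled out after their values were seen. miR-493 is among the 8 hairpins above 50% and miR-369 among the 5 below it. The pooled intervals cover counting error only and leave out the spread between libraries and groups.

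**Figure D5:**
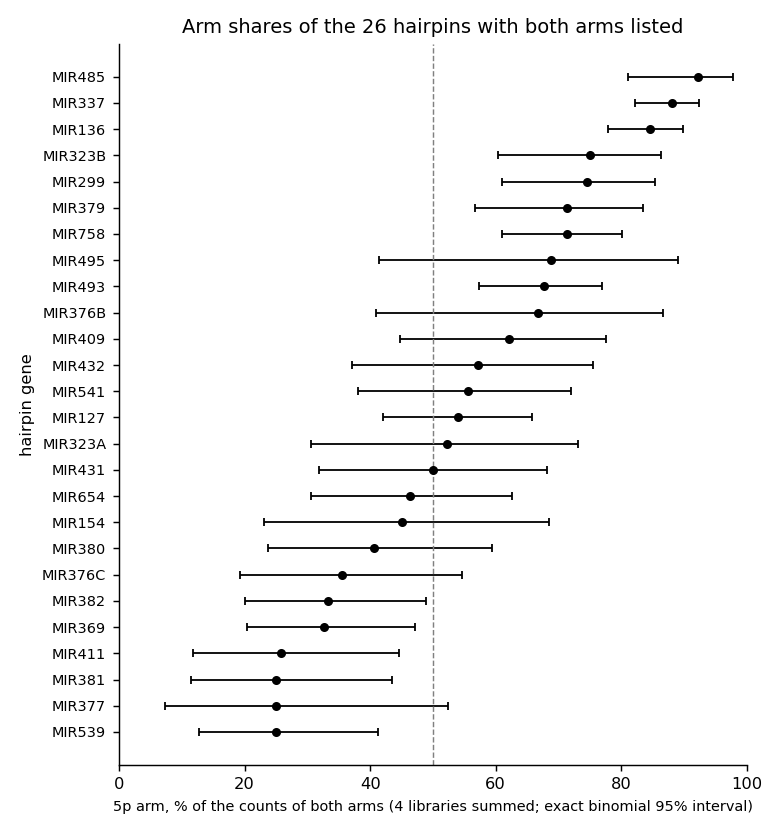
Share of the 5p arm in the counts of both arms (percent, x axis) for the 26 hairpins compared. Each has both arms listed at a single locus. Counts were summed over the 4 libraries, and bars are exact binomial 95% intervals. Of the intervals, 8 lie above the dashed line at 50% and 5 below it.

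The placental cluster on chromosome 19 (C19MC), another imprinted miRNA cluster, is the nearest counterpart. Of its 58 listed miRNAs, 6 were tested and 2 rose, with a median log2 fold change of 0.40. Over all tested miRNAs 11.8% were called higher, and over tested rare miRNAs 18.3%. The 2 were miR-516b-5p (4 and 2 counts against 20 and 12) and miR-518c-5p (1 and 3 against 16 and 16). Both passed the filter only through their YAP5SA libraries. The 58 miRNAs took 0.0787% and 0.0650% of counts in vector cells and 0.204% and 0.0948% in YAP5SA cells. The ratio of mean shares was 2.08, beside 1.64 for the DLK1-DIO3 members. Without YAP5SA replicate 1 these were 1.32 and 1.22. miRNAs of chromosome band 14q32 outside the cluster (10 listed, 6 tested) had 2 that fell, none that rose and a median of -0.27. Over all tested miRNAs 3.49% were called lower. The 2 were miR-203a and miR-203b-5p, and miR-203a is also among the epithelial rows that fell. These values therefore do not describe the 14q32 band apart from epithelial miRNAs. No test of the difference from the members was made.

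Lists of other cell types were read beside the members. The 10 mesenchymal miRNAs (miR-143, miR-145, miR-199a, miR-199b and miR-214) took 0.0189% and 0.0236% in vector cells and 0.0533% and 0.0208% in YAP5SA cells, with the highest share in YAP5SA replicate 1, as for the cluster. The 9 blood miRNAs ranged from 0.0386% to 0.110% and the 4 muscle miRNAs from 0.00410% to 0.0278%, each again highest in YAP5SA replicate 1. Of these lists 1 mesenchymal, 2 blood and 0 muscle rows were tested, and none was called; nor was any of the 4 tested gastrointestinal rows. The 5 neural miRNAs took 0.356% and 0.214% in vector cells and 0.177% and 0.127% in YAP5SA cells. Most of this was miR-128, the 1 of 3 tested rows called, which fell, beside 3.49% of all tested miRNAs called lower. Of the other tested rows, miR-124-5p was at a log2 fold change of -0.283 and miR-9-5p at 1.965 (edgeR adjusted p = 0.052). The neural miR-219-5p, not counted in this list, had 0 and 6.57 CPM in vector cells and 68.2 and 57.6 CPM in YAP5SA cells. miR-219-1-3p, also not counted, had 21.1 and 39.4 CPM against 96.6 and 115 CPM. miR-124-3p, the defining neural miRNA, had 0, 2, 2 and 3 counts, and the erythroid miR-451a 0, 3, 5 and 2. The 17 pluripotent miRNAs took 35.3% and 35.6% of counts in vector cells and 43.9% and 47.2% in YAP5SA cells, with none of 9 tested called. The part of other cell types in the members' values was not tested.

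In the authors' deposited table, 1 member (1.25%) was higher and 3 (3.75%) lower at an unadjusted p under 0.05, beside 4.27% and 5.05% of all miRNAs. In the authors' deposited table miR-485-5p had a fold of 0.342 (p = 0.0319), miR-656 a fold of 0.45 (p = 0.00916) and miR-337-5p a fold of 0.838 (p = 0.0135). The miR-656 fold rests on 5, 4, 4 and 3 raw counts. For miR-337-5p the deposited log2 values were 5.37 and 5.45 in vector cells and 5.49 and 4.71 in YAP5SA cells. Its groups thus overlapped, and what its p-value measured is not given. The higher one in the authors' deposited table, the 3p arm of miR-1185-2, had a fold of 1.3 on 0, 0, 1 and 1 raw counts. In the authors' deposited table miR-134 had a fold of 2.0 (p = 0.0853), miR-370 of 2.93 (p = 0.101) and miR-758-3p of 2.86 (p = 0.210), lower folds than from the raw counts and none under 0.05.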

How the data were processed

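Small RNA libraries were made from total RNA of 4 HFE-145 samples with an NEB kit, per the labels' protocols. The authors deposited 1 table of mature miRNAs with raw read counts, log2 values of normalized counts per sample and group, a fold ratio and a p-value, per the file headers. The sources used here do not give their normalization and test, the aligner, the use of strand or the miRNA annotation. FastQC and hg19 are named, per the submitters' processing notes.

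The test was edgeR 4.0.16 under R 4.3.3 (quasi-likelihood, TMM, default filter of 10 counts at the median library and 15 in all) on the deposited counts, with group as the term and a threshold of 0.05. The filter kept 602 miRNAs with 96.9% of counts. SE is the log2 fold change over the square root of F. CPM is scaled by TMM effective library size unless library totals are named. Counts were not divided by length, since members are 20 to 25 bases long. Members named were those tested, those with a summed count of at least 20, and those at 0 in 1 group with at least 3 in each library of the other. Members and lists were chosen with earlier results of these data known. Positions come from matching mature sequences to RefSeq and GENCODE 29 on GRCh38, as no hg19 annotation was used. The edgeR fit was tried on simulated counts with planted changes, drawn at the mean levels of the tested miRNAs with 1 common spread. The default filter on low counts was not part of that simulation. Alternatives were other scalings and filters, a replicate block, each library left out, DESeq2 1.42.0 and limma 3.58.1.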

Additional observations from a re-analysis of the deposited data

How the results depend on the processing

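Counts of members that rose were 3 with TMM scaling, 3 with upper-quartile scaling and with a replicate block, 6 with library totals and 6 with scaling from miRNAs at a mean of at least 1000 CPM. They were 0 without the filter, with a summed count of at least 20, with DESeq2 and with limma on the authors' log2 values, and 0 to 1 when a library was left out, the 1 being miR-668 without YAP5SA replicate 1. No member fell under any of these. miR-134, miR-370 and miR-758-3p passed under 4 of 12 alternatives each, with adjusted p of 0.00343 to 0.346, 0.000252 to 0.271 and 0.000276 to 0.324. The 6 were these with miR-758-5p, miR-127-5p and miR-382-3p. The cause of these losses and gains was not tested.

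Over all miRNAs, 71 rose and 21 fell in the main test. The numbers were 147 and 12 with library totals, 95 and 20 with upper quartile, 163 and 4 with abundant miRNAs, 34 and 14 without the filter, 27 and 11 with a summed count of at least 20, 35 and 16 with DESeq2, 9 and 1 with limma, and 0 to 51 and 0 to 59 when a library was left out. With the replicate block they were 102 and 34. Same-numbered libraries correlated at 0.016 in their deviations from group means. The labels do not say whether the numbers pair the samples, and with 2 libraries per group this correlation cannot decide it.

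The members' median log2 fold change (all tested miRNAs in parentheses) was 0.19 (0.11) with TMM, 0.71 (0.61) with library totals, 0.27 (0.20) with upper quartile, 0.94 (0.83) with abundant miRNAs, 0.92 (0.28) without the filter, 0.59 (0.19) with a summed count of at least 20, 0.13 (0.049) with DESeq2, -0.10 (-0.12) with limma, 0.25 (0.085) with the replicate block, and -0.02 to 0.40 when a library was left out. The ratio of cluster shares was 1.64, 1.17 with TMM, 1.70 without the most counted miRNA, and 1.22 to 2.05 when a library was left out. The share ratios of rare members, rare miRNAs, the 76 less counted members and C19MC were recomputed with TMM and with each library left out, alternatives chosen after seeing the data, and all stayed above 1.

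Single members turned in sign under some settings. With library totals miR-487a was at 0.51, miR-337-5p at 0.27 and miR-544b at 0.017. With upper quartile miR-487a was at 0.063, and with abundant miRNAs these 3 were at 0.73, 0.49 and 0.25. Without the filter miR-136-5p was at -0.26 and miR-323b-5p at -0.29, and with a summed count of at least 20 at -0.10 and -0.13. With limma miR-487a was at 0.48, miR-299-5p at -0.15, miR-323b-5p at -0.20 and miR-127-3p at -0.10. When each library was left out in turn, the log2 fold change ranged from -0.19 to 0.15 for miR-487a, from -1.47 to 0.40 for miR-329, from -1.70 to 0.28 for miR-655, from -0.43 to 1.58 for miR-668, from -1.27 to 0.041 for miR-493-5p, from -0.022 to 1.10 for miR-299-5p and from -0.64 to 1.74 for miR-323b-5p. The turn came without vector replicate 1 for miR-329 and miR-655, without vector replicate 2 for miR-487a and miR-493-5p, and without YAP5SA replicate 2 for miR-668 and miR-299-5p; miR-323b-5p turned without vector replicate 1 and without YAP5SA replicate 1. Depth was a limit, since 61 of 80 members were too rarely counted to test.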
